A study of Mus musculus with 2 samples.

Results

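The genes described here are 48 subunits of ATP-dependent chromatin remodelling complexes: 25 of SWI/SNF, 7 of ISWI, 8 of the CHD family, 5 of INO80 and SRCAP, and 3 other SNF2-family ATPases. They were taken by gene symbol from a list of complex subunits, with earlier results of these data known, out of the 54532 genes of the deposited table, and each symbol occurs there once. Their RNA was sequenced in RAW264.7 cells, a macrophage-like line from the mouse. Of the 2 libraries, 1 is labelled RNF138 knockout and 1 wild type. Both came from cells given lipopolysaccharide (LPS, a bacterial cell wall component) at 100 ng/ml for 3 h, so no comparison with unstimulated cells was possible. RNF138 is a ubiquitin ligase, and SMARCC1, a core SWI/SNF subunit, has been described as one of its substrates. The sources used here give neither the means of deletion nor whether the line is 1 clone. With 1 library per group there is no replicate check, so no test was run and every difference below is between these libraries.

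Chromatin remodellers use ATP to slide, eject or exchange nucleosomes, and so set which stretches of DNA are open to transcription factors. SWI/SNF complexes are built round the ATPase BRG1 or BRM and come as BAF, PBAF and non-canonical BAF, which differ in their accessory subunits. ISWI enzymes space nucleosomes, CHD enzymes include the motor of the repressive NuRD complex, and INO80 and SRCAP handle the histone variant H2A.Z. In macrophages, SWI/SNF is known for opening the promoters of late-induced LPS response genes, and NuRD for restraining some of the same genes.

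The library labelled knockout held 19032311 counts and the library labelled wild type 15573989, which is the depth behind each value. Rnf138 itself went against the label: it had 4764 counts in the library labelled knockout and 602 in the library labelled wild type, a ratio of 6.55 (95% counting interval 6.01 to 7.14). A count summed over all exons cannot reveal a partial deletion, so the libraries are called by their labels throughout (KO-labelled and WT-labelled for short) and every direction depends on those labels. All 10 macrophage markers were measured in both libraries, with a summed level of 3828 CPM (counts per 1000000, scaled between libraries) in the library labelled knockout and 2644 CPM in the library labelled wild type. Lyz2, lysozyme, had a ratio of 2.55 (labelled knockout over labelled wild type, as for every ratio here), whereas the ratio of Adgre1, which encodes F4/80, was 0.279. Lck was the T cell marker with more than 2 counts, at 55 KO-labelled and 22 WT-labelled, and B cell, fibroblast and epithelial markers summed to under 1 CPM in each library. In bulk RNA, fewer cells of a type and less RNA per cell cannot be told apart.

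Nearly all the remodeller genes were transcribed, and few differed by much between the libraries. A gene was called measured with a mean count of at least 10, which 47 of the 48 reached, and 43 reached a mean of 100. The exception was the ISWI motor gene Smarca1, with 1 count in the library labelled knockout and 0 in the library labelled wild type. By a size rule of at least 2-fold with an exact 95% interval of the ratio excluding 1, 1 remodeller gene was higher in the library labelled knockout (Ss18l1) and 0 were lower. Over all 12668 measured genes, 6.54% were higher and 3.62% lower by that rule. At 1.5-fold, Ss18l1 and Chd3 were higher and Arid1b was lower, beside 12.9% and 8.06% of all measured genes. Among well-counted genes (mean count of 100 or more), 2 of 43 remodeller genes (4.65%) lay past 1.5-fold in either direction, beside 16.7% of 9411 genes.

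The ratios of the group lay on both sides of 1. Of the 47 measured genes, 24 had a ratio above 1 and 23 below. The interval lay wholly above 1 for 17 genes and wholly below 1 for 19, and it included 1 for 11. Over all 12668 measured genes it lay wholly above 1 for 3988 and wholly below 1 for 3565, and included 1 for 5115. Intervals narrow with counts, and 43 of the 47 remodeller genes were well counted, beside 9411 of the 12668. The log2 ratio of the remodeller genes had a median of 0.0045, beside 0.025 over all measured genes. The log2 ratios had a standard deviation of 0.32 over the 43 well-counted remodeller genes, beside 0.54 over all 9411 genes at that depth. Intervals are exact, cover counting error only and leave out the spread between cultures, and reads amplified by PCR are not independent molecules.

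**Figure D1:**
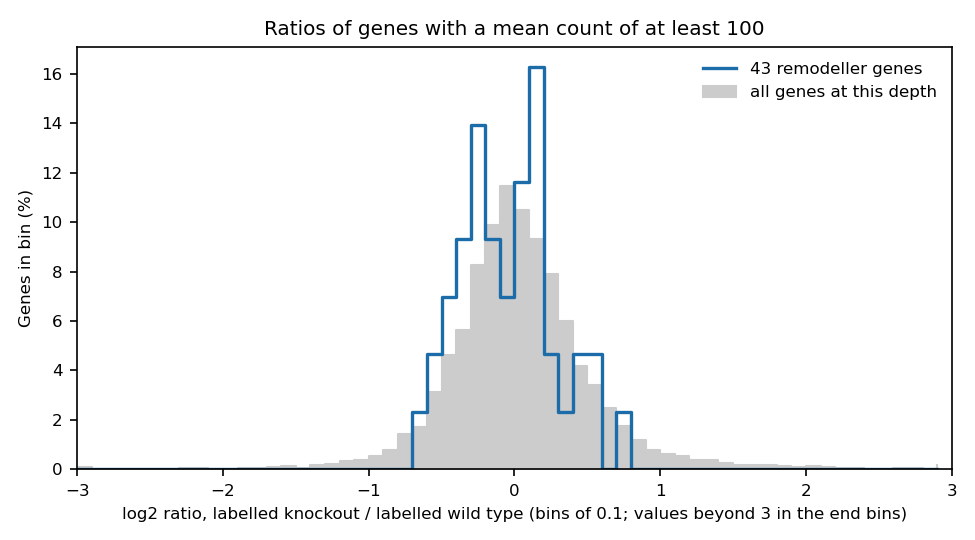
Distribution of the log2 ratio (library labelled knockout over library labelled wild type) in bins of 0.1, as the percentage of genes in each bin. The line stands for the 43 remodeller genes that reached a mean count of 100 (SD 0.32) and the grey area for all 9411 genes at that depth (SD 0.54). The remodeller genes lie between log2 ratios of -0.65 and 0.77.

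In level, the group ran over several orders of magnitude. On the deposited FPKM scale, which divides by gene length and so allows genes to be compared, Ruvbl1 stood highest in the library labelled knockout at 91.8 FPKM, against 63.2 in the library labelled wild type. Chd4 stood highest in the library labelled wild type, at 77.6 FPKM in the library labelled knockout and 81.1 in the library labelled wild type. After these came Ruvbl2 at 57.9 KO-labelled and 51.6 WT-labelled FPKM and the SWI/SNF motor gene Smarca4 at 50.8 KO-labelled and 48.9 WT-labelled FPKM. A level above 20 FPKM was reached by 14 genes in the library labelled knockout and by 15 in the library labelled wild type. Levels below 1 FPKM were found for 6 genes in each library: Srcap, Ss18l1, Dpf1, Smarcd3, Dpf3 and Smarca1. Several of these low genes encode subunits known from neurons or muscle.

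**Figure D2:**
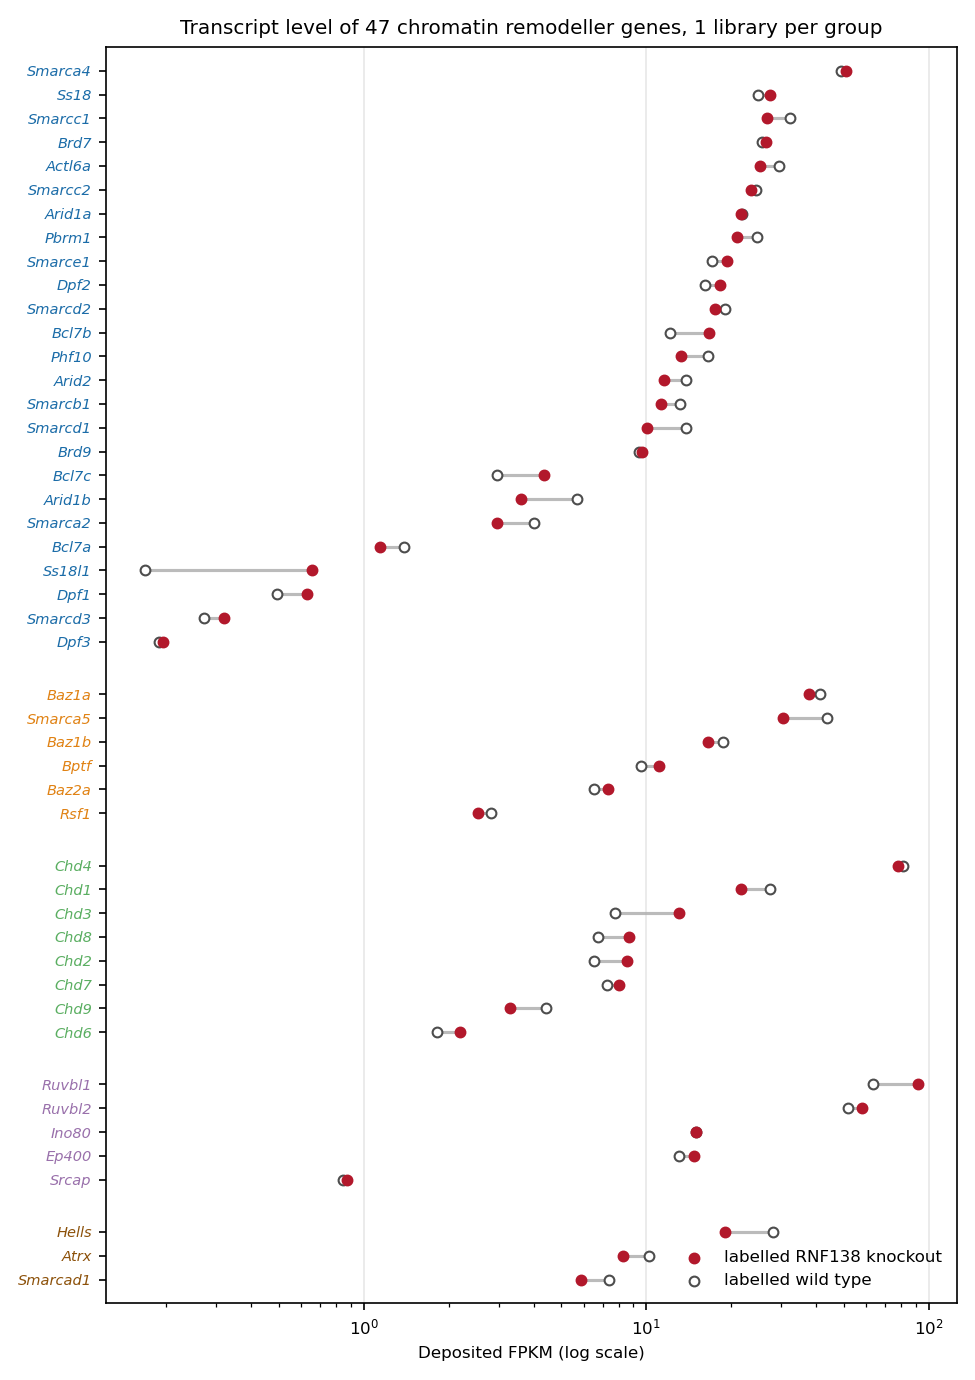
Deposited FPKM (log axis) of the 47 measured remodeller genes in the library labelled RNF138 knockout (filled) and the library labelled wild type (open), 1 library each. Genes are grouped from top to bottom as SWI/SNF, ISWI, CHD, INO80/SRCAP and other SNF2 and ordered by level. Most pairs of points lie close together, and the widest gap belongs to Ss18l1, at 0.654 KO-labelled and 0.168 WT-labelled FPKM.

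Most SWI/SNF motor transcripts were those of BRG1, and the summed level of the motor genes was even between the libraries. Smarca4, which encodes BRG1, had 318 CPM (6025 counts) in the library labelled knockout and 304 CPM (4762 counts) in the library labelled wild type, a ratio of 1.05 (1.01 to 1.09). Smarca2, which encodes the alternative motor BRM, had 40.7 KO-labelled CPM (771 counts) and 54.98 WT-labelled CPM (861 counts), a ratio of 0.741 (0.671 to 0.817). Together the motor genes gave 359.0 CPM in the library labelled knockout and 359.1 CPM in the library labelled wild type. Per gene length, Smarca2 made up 5.49% of the pair's reads in the library labelled knockout and 7.58% in the library labelled wild type.

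The core subunits, which hold the complex together and on which the other modules assemble, were lower as a group by a small margin. Their 7 genes summed to 640 CPM in the library labelled knockout and 704 CPM in the library labelled wild type, with a median log2 ratio of -0.11. Smarcc1 (ENSMUSG00000032481), the BAF155 scaffold gene, had 202 CPM (196 to 208, from 3822 counts) in the library labelled knockout and 243 CPM (236 to 251, from 3813 counts) in the library labelled wild type. Its ratio was 0.829 (0.793 to 0.868), or 1.21-fold lower, short of both fold limits. With the trends of all genes on length and GC content removed (a step added after the data were seen), its log2 ratio was -0.20 in place of -0.27. Transcript counts do not measure the SMARCC1 protein. Smarcc2, which encodes the paralogous scaffold BAF170, had 2393 KO-labelled and 2046 WT-labelled counts, a ratio of 0.968 (0.912 to 1.03). The share of Smarcc2 in the pair per gene length was therefore higher, at 46.9% (45.6 to 48.2) in the library labelled knockout and 43.1% (41.8 to 44.4) in the library labelled wild type.

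The stretches just upstream of both scaffold genes are shown because their base composition differs. They were read from RefSeq promoter sequences on GRCm38.p6, on the plus strand, leaving out bases that lie in annotated exons. Capitals mark a match to the ETS core CCGGAAG. The Smarcc1 stretch is chr9:110131774-110131979, lies 250 to 45 bases before the RefSeq start at 110132024 and is inside the gene bounds of the deposited table, which begin at 110117708, but outside its exons. The Smarcc2 stretch is chr10:128458986-128459235 and ends 1 base before the RefSeq start.
Smarcc1: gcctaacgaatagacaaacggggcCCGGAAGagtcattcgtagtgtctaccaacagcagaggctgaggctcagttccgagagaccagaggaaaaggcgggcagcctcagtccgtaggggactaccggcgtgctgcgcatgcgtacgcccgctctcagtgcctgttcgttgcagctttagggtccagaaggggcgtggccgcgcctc
Smarcc2: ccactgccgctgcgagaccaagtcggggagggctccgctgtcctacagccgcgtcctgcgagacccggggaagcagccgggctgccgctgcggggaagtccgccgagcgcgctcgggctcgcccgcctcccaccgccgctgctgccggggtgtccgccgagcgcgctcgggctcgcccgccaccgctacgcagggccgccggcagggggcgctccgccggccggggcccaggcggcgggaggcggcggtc
The Smarcc1 stretch holds 17 CpG in 206 bases and 1 ETS match, 226 to 220 bases before the start. The Smarcc2 stretch holds 40 CpG in 250 bases, a GC content of 80.8%, and none of the motifs searched.

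Other core genes differed modestly. Smarcb1, which encodes the nucleosome-gripping subunit SNF5, had 1641 counts in the library labelled knockout and 1565 in the library labelled wild type, a ratio of 0.867 (0.809 to 0.930). Smarcd1, one of the exchangeable BAF60 subunits that contact transcription factors, had 744 KO-labelled and 838 WT-labelled counts, a ratio of 0.735 (0.665 to 0.812), although 12.7% of its exon bases overlap another gene. Its paralogue Smarcd2, known for its part in granulocyte development, was close to even at 1150 KO-labelled and 1026 WT-labelled counts (0.927, 0.852 to 1.01). Smarcd3, the form known from heart and muscle, was barely detected at 30 KO-labelled and 21 WT-labelled counts, and 48.2% of its exon bases lie opposite Chpf2. Smarce1, which encodes the DNA-binding subunit BAF57, stood on the other side of 1 with 2342 KO-labelled and 1712 WT-labelled counts and a ratio of 1.13 (1.06 to 1.21).

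The ATPase module, the small proteins that sit on the motor, held the one gene past 2-fold. Ss18l1 (ENSMUSG00000039086, GRCm38 chromosome 2, 180042509 to 180070201, plus strand) encodes CREST, the paralogue of SS18 that takes its place in neurons. It had 2.75 CPM (2.05 to 3.6, from 52 counts) in the library labelled knockout and 0.702 CPM (0.351 to 1.26, from 11 counts) in the library labelled wild type. The ratio was 3.91 (2.02 to 8.31), and the counting intervals of the libraries did not overlap. On log2 of FPKM plus 1, which shrinks the ratios of low genes, its log2 ratio was 0.50 in place of 1.92 and short of 1.5-fold. None of its exon bases overlap another gene. Ss18, its abundant paralogue, had 2261 KO-labelled and 1694 WT-labelled counts, a ratio of 1.10 (1.04 to 1.18), so that Ss18l1 made up 2.34% of the pair per gene length in the library labelled knockout and 0.672% in the library labelled wild type. Even at its higher level, Ss18l1 was therefore a minor transcript beside Ss18.

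The neuronal markers also had more counts in the library labelled knockout. All 4 neuronal markers listed (Syp, Snap25, Tubb3 and Rbfox3) had counts in the library labelled knockout, 42 in all (2.22 CPM), and the library labelled wild type had counts for 1 of the 4, 6 in all (0.383 CPM). Snap25 had 14 KO-labelled and 0 WT-labelled counts and Syp 19 KO-labelled and 6 WT-labelled. The other subunits known from neuronal SWI/SNF were near the limit of detection: Dpf1 had 62 KO-labelled and 40 WT-labelled counts, with a ratio of 1.28 (0.848 to 1.96), Dpf3 had 15 KO-labelled and 12 WT-labelled (1.03, 0.452 to 2.42), and Actl6b, which is outside the 48, had 3 KO-labelled and 0 WT-labelled. With 19032311 counts, the library labelled knockout was deeper than the library labelled wild type with 15573989. The library labelled knockout had counts for more genes of any kind, 19566 beside 18130 in the library labelled wild type. Whether a gene has any count depends in part on that depth. Lck, a T cell marker, had a ratio of 2.07 (1.24 to 3.56). The neuron-linked counts are few, and their part in the Ss18l1 ratio was not tested.

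The bases next to Ss18l1 are shared with a divergent neighbour. Psma7, which encodes a proteasome subunit, starts on the opposite strand, and its first exon takes up most of the 250 bases before the RefSeq start of Ss18l1 at 180042483. The 49 exon-free bases between them, chr2:180042434-180042482 on the plus strand of GRCm38.p6, are given with capitals for a GC box (GGGCGG, here on the reverse strand, 48 to 43 bases before the start).
Ss18l1: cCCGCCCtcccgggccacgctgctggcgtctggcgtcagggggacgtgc
Psma7 itself had 4189 counts in the library labelled knockout and 3225 in the library labelled wild type, a ratio of 1.07 (1.03 to 1.13). The neighbour was thus nearly even between the libraries.

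The BCL7 genes of the same module, whose proteins bind the motor and the nucleosome, were unevenly split. Bcl7c had 574 counts in the library labelled knockout and 321 in the library labelled wild type, a ratio of 1.48 (1.29 to 1.70) that falls just short of 1.5-fold. Bcl7b had 732 KO-labelled and 440 WT-labelled counts, a ratio of 1.38 (1.22 to 1.55). Bcl7a had 199 in each library, a ratio of 0.827 (0.676 to 1.01) after scaling. The share of Bcl7a against Bcl7c was thus 20.9% (18.3 to 23.7) in the library labelled knockout and 32.1% (28.2 to 36.1) in the library labelled wild type. Actl6a, which encodes the actin-related subunit BAF53A of dividing cells, had 1791 KO-labelled and 1732 WT-labelled counts and a ratio of 0.855 (0.8 to 0.914), with 11.6% of its exon bases shared with Mrpl47.

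Among the subunits that define BAF, the ARID1 paralogues parted. Arid1b (ENSMUSG00000069729, chromosome 17, 4994332 to 5347656, plus strand) had 43.7 CPM (40.8 to 46.8, from 828 counts) in the library labelled knockout and 68.8 CPM (64.8 to 73.1, from 1078 counts) in the library labelled wild type. Its level in the library labelled knockout was 1.57-fold lower (1.44 to 1.72), the only remodeller gene past 1.5-fold in that direction. Its log2 ratio of -0.65 was -0.54 on log2 of FPKM plus 1, short of 1.5-fold. Arid1a, the more abundant of these mutually exclusive DNA-binding subunits, was even between the libraries, at 4555 KO-labelled and 3781 WT-labelled counts, a ratio of 0.997 (0.954 to 1.04). Arid1b thus made up 14.2% (13.3 to 15.1) of the pair per gene length in the library labelled knockout and 20.6% (19.5 to 21.7) in the library labelled wild type. Dpf2, the ubiquitous histone-reading BAF45 subunit, had 2176 KO-labelled and 1576 WT-labelled counts (1.14, 1.07 to 1.22), and Dpf3, known from muscle and brain, was barely detected, with the counts given above.

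Of the 4 PBAF genes, 3 had ratios below 1, by margins that shrank once GC content and length were allowed for. The 1 ncBAF gene among the 48, Brd9, was even. Together the PBAF genes summed to 497 CPM in the library labelled knockout and 560 CPM in the library labelled wild type, a ratio of 0.887 (0.862 to 0.913). Pbrm1, which encodes the polybromo acetyl-lysine reader, had 3402 KO-labelled and 3283 WT-labelled counts (0.857, 0.817 to 0.900), and Arid2, the subunit that stands in for ARID1 in PBAF, had 2263 KO-labelled and 2242 WT-labelled (0.835, 0.787 to 0.886). Phf10, whose BAF45 family protein takes in PBAF the place that DPF2 has in BAF, had 1197 KO-labelled and 1223 WT-labelled counts (0.810, 0.747 to 0.878). With the trends of all genes on length and GC content removed (a step added after the data were seen), the log2 ratio was -0.016 in place of -0.22 for Pbrm1, -0.15 in place of -0.26 for Arid2 and -0.15 in place of -0.30 for Phf10. Brd7, a bromodomain subunit, differed from these with 2545 KO-labelled and 2025 WT-labelled counts and a ratio of 1.04 (0.980 to 1.10). Brd9, the bromodomain subunit specific to ncBAF, had 1230 KO-labelled and 989 WT-labelled counts (1.03, 0.946 to 1.12). Over all 25 SWI/SNF genes the median log2 ratio was -0.0048, and over the 21 of them with a mean count of at least 100 it was -0.11.

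**Figure D3:**
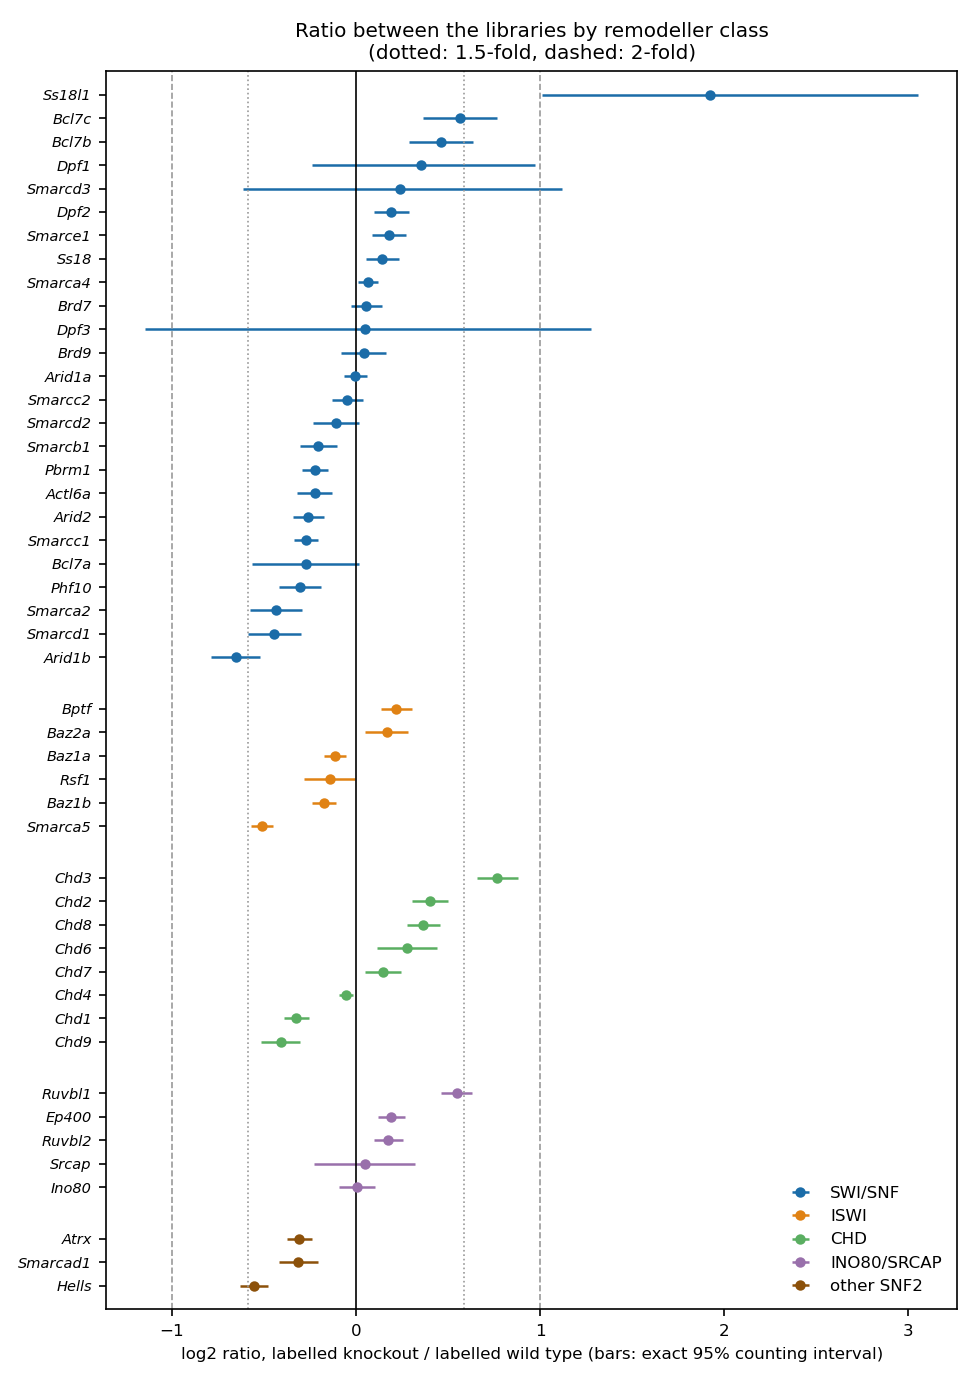
Log2 ratio (library labelled knockout over library labelled wild type) of the 47 measured remodeller genes by class, with exact 95% counting intervals; the dotted lines mark 1.5-fold and the dashed lines 2-fold. Ss18l1 lies past the 2-fold line, Chd3 past 1.5-fold on the higher side and Arid1b past 1.5-fold on the lower side. All 5 INO80/SRCAP genes lie above 0 and all 3 other SNF2 genes below.

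In the ISWI class the motor gene was lower, while its partner genes lay on both sides of 1. Smarca5, which encodes SNF2H, the motor of the ACF, CHRAC, WICH and RSF complexes, had 229 CPM (222 to 236, from 4336 counts) in the library labelled knockout and 327 CPM (318 to 336, from 5117 counts) in the library labelled wild type. It was 1.43-fold lower (1.37 to 1.49), short of 1.5-fold. The alternative motor gene Smarca1 was at 1 KO-labelled and 0 WT-labelled counts, and a count of 0 allows up to 3 counts in that library at the one-sided 95% limit, so nearly all ISWI motor reads in both libraries were those of Smarca5.

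The ISWI partner genes encode subunits of different ISWI complexes. Baz1a, of ACF and CHRAC, had 4950 counts in the library labelled knockout and 4428 in the library labelled wild type, a ratio of 0.925 (0.888 to 0.963). Baz1b, of WICH, had 4130 KO-labelled and 3857 WT-labelled counts (0.886, 0.848 to 0.926), and Rsf1, of RSF, had 886 KO-labelled and 809 WT-labelled (0.906, 0.823 to 0.998). Baz2a, of the nucleolar NoRC complex that silences ribosomal genes, and Bptf, the histone-reading subunit of NURF, lay above 1. Baz2a had 1435 KO-labelled and 1058 WT-labelled counts (1.12, 1.04 to 1.22) and Bptf 2864 KO-labelled and 2036 WT-labelled (1.16, 1.10 to 1.23).

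CHD genes lay on both sides of 1, with 5 of 8 above 1, 3 below and no interval that included 1. All 8 were well counted, and over all 12668 measured genes the interval included 1 for 5115. Chd3 (ENSMUSG00000018474, chromosome 11, 69343273 to 69369406, minus strand), one of the alternative motors of NuRD, had 107 CPM (102 to 112, from 2024 counts) in the library labelled knockout and 62.8 CPM (59.0 to 66.9, from 984 counts) in the library labelled wild type. Its ratio was 1.70 (1.58 to 1.84), the highest of the well-counted remodeller genes. Chd4, the main NuRD motor and by read number the most abundant of all 48 genes, was nearly even at 602 KO-labelled CPM (11395 counts) and 625 WT-labelled CPM (9786 counts), a ratio of 0.963 (0.938 to 0.990). Chd3 made up 14.4% (13.9 to 15.03) of the Chd3 and Chd4 reads per gene length in the library labelled knockout and 8.72% (8.20 to 9.25) in the library labelled wild type.

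The other CHD paralogues also lay on opposite sides of 1. Chd1, which spaces nucleosomes behind elongating polymerase, had 183 CPM (3456 counts) in the library labelled knockout and 229 CPM (3584 counts) in the library labelled wild type, a ratio of 0.798 (0.761 to 0.836). Its close paralogue Chd2 had 118 KO-labelled CPM (2240 counts) and 89.6 WT-labelled CPM (1403 counts), a ratio of 1.32 (1.24 to 1.41), with 19.3% of its exon bases shared with neighbouring genes.
Within the CHD6 to CHD9 subfamily, Chd9 was lower, at 73.9 CPM (1399 counts) in the library labelled knockout and 98.1 CPM (1536 counts) in the library labelled wild type (0.754, 0.700 to 0.811). Its relatives were higher. Chd8, a regulator of Wnt target genes, had 139 KO-labelled CPM (2622 counts) and 107 WT-labelled CPM (1683 counts), a ratio of 1.29 (1.21 to 1.37). Chd6 had 40.4 KO-labelled CPM (765 counts) and 33.4 WT-labelled CPM (523 counts), a ratio of 1.21 (1.08 to 1.36), and Chd7, the gene mutated in CHARGE syndrome in humans, had 107 KO-labelled CPM (2016 counts) and 96.2 WT-labelled CPM (1506 counts), a ratio of 1.11 (1.04 to 1.18).

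All 5 INO80 and SRCAP class genes had ratios above 1, with the largest for a gene of the shared AAA+ ring. The interval included 1 for 2 of the 5. Ruvbl1, whose protein forms with RUVBL2 the ring on which INO80, SRCAP and TIP60 complexes assemble, had 169 CPM (163 to 175, from 3192 counts) in the library labelled knockout and 115 CPM (110 to 121, from 1807 counts) in the library labelled wild type, a ratio of 1.46 (1.38 to 1.55). Ruvbl2 had 3075 KO-labelled and 2253 WT-labelled counts, a ratio of 1.13 (1.07 to 1.19), and 15.4% of its exon bases overlap Gys1 and other neighbours. The ring genes together gave 331 CPM in the library labelled knockout and 259 CPM in the library labelled wild type. With the length and GC trends removed as for the PBAF genes, the log2 ratio of Ruvbl1 was 0.41 in place of 0.55. The median log2 ratio of the class was then 0.097 in place of 0.18, beside 0.046 in place of 0.025 over all measured genes. Further listed subunits of these complexes, which are outside the class, lay on both sides of 1. Of 11 INO80 subunits, 7 had a ratio above 1 and 4 below, and of 16 SRCAP and TIP60 subunits, 10 above and 6 below. Over all 12668 measured genes, 6640 had a ratio above 1 and 6028 below.

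The motor genes of this class differed little. Ep400, whose protein drives H2A.Z exchange in the TIP60 complex, had 200 CPM (3784 counts) in the library labelled knockout and 175 CPM (2740 counts) in the library labelled wild type, a ratio of 1.14 (1.09 to 1.2). Ino80 had 98.3 KO-labelled CPM (1860 counts) and 98.0 WT-labelled CPM (1534 counts) and a ratio of 1.003 (0.937 to 1.07), so its place above 1 is set by the choice of scale: its sign turned under total-count, upper-quartile and DESeq2 scaling. Srcap had 13.3 KO-labelled CPM (251 counts) and 12.8 WT-labelled CPM (201 counts), a ratio of 1.03 (0.855 to 1.25), and 65.0% of its exon bases are shared with Gm42715 and others, which makes its level uncertain.

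The other SNF2 motor genes were all lower. Hells, which encodes the LSH protein needed for DNA methylation of repeats and is known to be high in dividing cells, had 133 CPM (128 to 138, from 2514 counts) in the library labelled knockout and 195 CPM (188 to 202, from 3050 counts) in the library labelled wild type. It was 1.47-fold lower (1.39 to 1.55), just short of 1.5-fold. Atrx, which deposits histone H3.3 at repeats and telomeres, had 173 KO-labelled CPM (3283 counts) and 215 WT-labelled CPM (3361 counts), a ratio of 0.808 (0.770 to 0.848). Smarcad1, which acts in restoring silent chromatin after replication, had 75.8 KO-labelled CPM (1435 counts) and 94.3 WT-labelled CPM (1476 counts), a ratio of 0.804 (0.747 to 0.866).

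The ratio ran along with base composition. Over the 47 measured remodeller genes, Spearman's rho between log2 ratio and the GC content of the longest GENCODE M21 transcript was 0.39, and over 12648 genes it was 0.17; these are descriptions across genes within the same libraries. The 16 remodeller genes of lowest GC content (37.7% to 48.0%) had a median log2 ratio of -0.24, and the 16 of highest GC content (52.4% to 59.2%) had 0.056. The other SNF2 genes had the lowest median GC content of any class, 39.5%. With the length and GC trends removed as above, their median log2 ratio was -0.11 in place of -0.31, and that of the ISWI genes was 0.02 in place of -0.13. Smarca5 was then at -0.28 in place of -0.51 and Hells at -0.25 in place of -0.55. Atrx was at -0.088 in place of -0.31 and Chd1 at -0.16 in place of -0.33, and Smarce1 was at 0.44 in place of 0.18, whereas Ss18l1, Chd3 and Arid1b kept their calls.

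**Figure D4:**
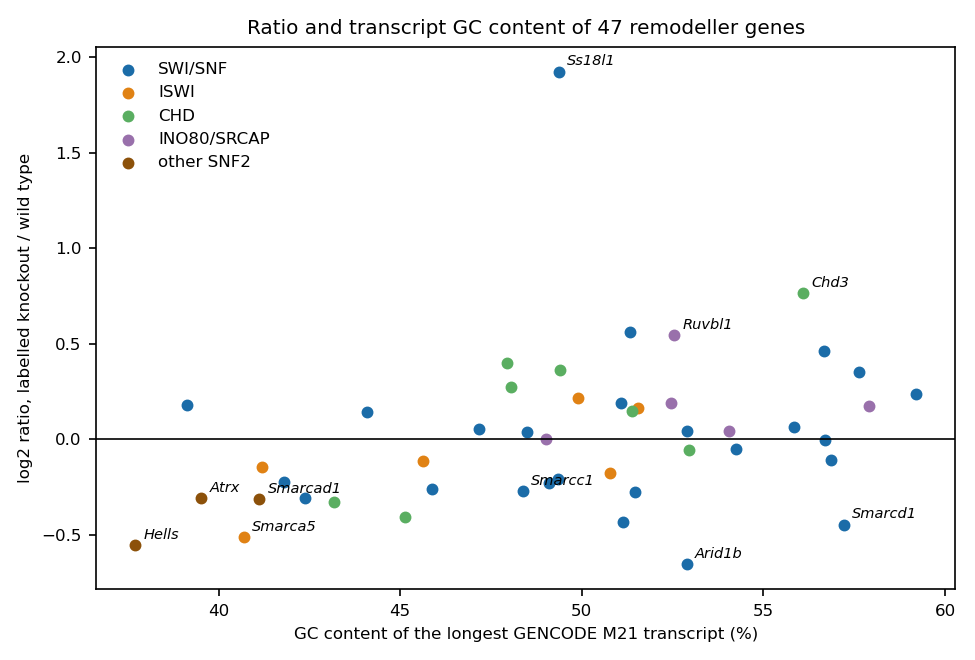
Log2 ratio (library labelled knockout over library labelled wild type) of the 47 measured remodeller genes against the GC content (%) of the longest GENCODE M21 transcript, coloured by class. Hells, Atrx, Smarca5 and Smarcad1 sit at the low-GC end with log2 ratios below 0, and Chd3 and Ruvbl1 lie above 0 at higher GC content (rho 0.39, n = 47 genes). The scatter is wide: Smarce1 lies at 0.18 with a GC content of 39.1%, and Smarcd1 (57.2%) and Arid1b (52.9%) lie at -0.44 and -0.65.

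Setting paralogues against each other removes the choice of scale between libraries. Of 22 pairs of interchangeable or related subunits, 21 could be compared, and the ratio of their ratios was past 1.5-fold with an interval excluding 1 in 6. These were Ss18l1 against Ss18 (3.54, 1.82 to 7.55), Chd3 against Chd4 (1.77, 1.63 to 1.92), Chd2 against Chd1 (1.66, 1.52 to 1.8), Arid1b against Arid1a (0.638, 0.576 to 0.706), Chd9 against Chd8 (0.585, 0.531 to 0.644) and Bcl7a against Bcl7c (0.559, 0.437 to 0.716). In 3 of the 6 pairs the less abundant member had the larger share in the library labelled knockout, and in the other 3 it had the smaller share, so there was no common direction. The interval included 1 in 8 pairs, among them Baz1a against Baz1b (1.04, 0.983 to 1.11) and Brd9 against Brd7 (0.990, 0.892 to 1.10). The share of other gene pairs past the same limit was not worked out, and a ratio of ratios can vary more than a single ratio. Some genes, such as Chd8 and Dpf2, stand in several pairs, so the pairs are not independent. Whether paralogues differ more than unrelated genes was therefore not tested.

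**Figure D5:**
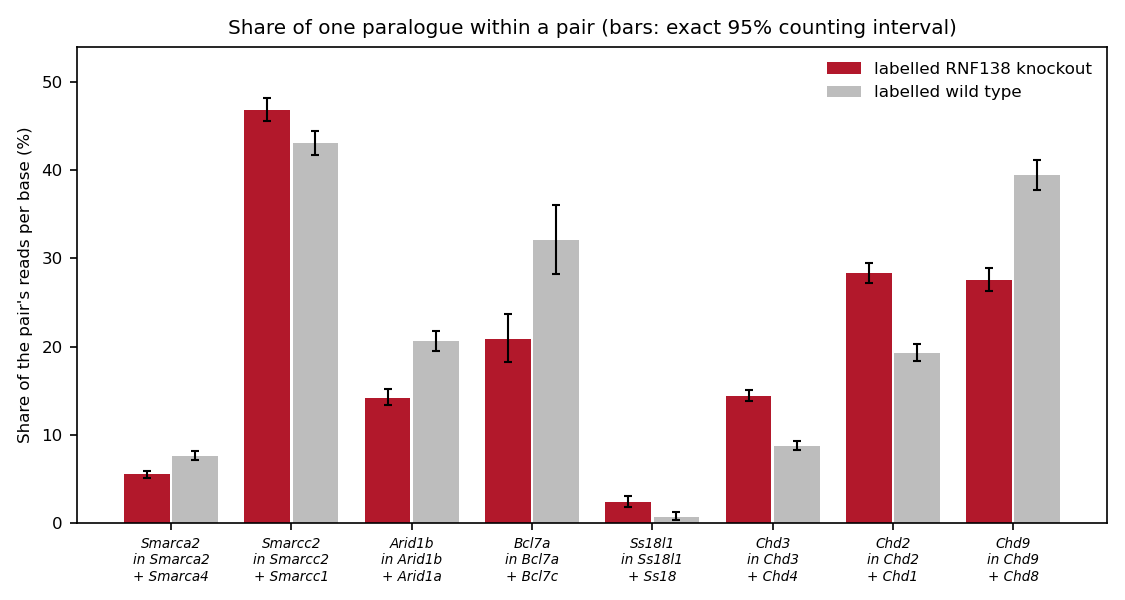
Share (%) of the named paralogue in the reads per base of its pair, in the library labelled RNF138 knockout (left bar) and the library labelled wild type (right bar), with exact 95% counting intervals. Chd3, Chd2 and Ss18l1 had larger shares in the library labelled knockout (14.4% against 8.72% for Chd3), and Arid1b, Bcl7a and Chd9 had smaller ones (14.2% against 20.6% for Arid1b).

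Few further genes of these complexes and of the SNF2 family differed by much between the libraries. Of 60 such genes listed, 12 of them other SNF2-family ATPases, 58 were measured, with a median log2 ratio of -0.046. Of these, 1 was past 2-fold: Chd5, the NuRD motor known from neurons, with 41 counts in the library labelled knockout and 15 in the library labelled wild type (2.26, 1.23 to 4.4). Over all measured genes, 6.54% were higher and 3.62% lower by the 2-fold rule. At 1.5-fold, Vps72, the H2A.Z chaperone subunit of SRCAP and TIP60, was higher with 1829 KO-labelled and 806 WT-labelled counts (1.88, 1.73 to 2.04), as was Tfpt of INO80 with 282 KO-labelled and 136 WT-labelled (1.72, 1.39 to 2.12). Baz2b, an ISWI partner, was lower with 1234 KO-labelled and 1539 WT-labelled counts (0.663, 0.615 to 0.715), as was Ercc6l, a mitotic SNF2-family ATPase gene, with 732 KO-labelled and 926 WT-labelled (0.654, 0.593 to 0.721). With Chd5 included, 5.17% of the 58 were higher and 3.45% lower at 1.5-fold, beside 12.9% and 8.06% of all measured genes. Chd5, like Ss18l1, had low counts in both libraries, and the share of all genes at such counts past 2-fold was not worked out.
NuRD partners lay mostly below 1. Of 13 measured NuRD genes, 9 had a ratio below 1. Below 1 were also 4 of 11 INO80 subunits, 6 of 16 SRCAP and TIP60 subunits and 6028 of all 12668 measured genes. The median log2 ratio of the NuRD genes was -0.26, although Chd3, a motor of the same complex, lay above 1.5-fold. Gatad2a had the lowest ratio of the list, 0.721 (0.682 to 0.762), and Mta1 followed at 0.746 (0.699 to 0.796). Among the histone deacetylase genes of the complex, Hdac1 was at 1.19 (1.10 to 1.28) and Hdac2 at 0.941 (0.889 to 0.995).

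The promoters of the group are rich in CpG and GC boxes. RefSeq promoter sequences were found for 38 of the 48 genes, Chd3 not among them, and the 250 bases before each start were searched on both strands. A GC box (GGGCGG) was present in 32 of 38 (84.2%), beside 59.6% of the promoters of 8945 measured genes and 32.7% of all 32841 promoters. The median was 21 CpG in these promoters, 16 in those of measured genes and 6 in all. Motifs of factors active under LPS did not set the group apart from measured genes, since 1 of 38 promoters is already 2.63%. An NF-kappaB site was in 2 of 38 (5.26%, beside 4.33% of measured genes' promoters and 3.90% of all promoters). The AP-1 motif TGANTCA was in 1 (2.63%, beside 4.29% of measured and 6.75% of all). The interferon regulatory factor core TTCNNTTT was in 7 (18.4%), which lies between the 16.3% of measured and the 21.1% of all promoters. The ETS core CCGGAAG was in 3 (7.89%), near the 6.91% of all promoters but below the 15.2% of measured ones. The TATA box TATAAA was in 2 (5.26%, beside 6.07% of measured and 12.4% of all), the E-box CACGTG in 4 (10.5%, beside 8.69% of measured and 6.02% of all), and the cAMP response element TGACGTCA in 0 (beside 2.96% of measured and 1.55% of all). None of the letter strings searched lies within another. These are matches of letters and not sites shown to be bound.

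In the authors' deposited table, 47 of the 48 genes carry an adjusted p-value, and 0 of them lie below 0.05, beside 2.21% of the 18843 genes with one. Among these 47 genes, the lowest in the authors' deposited table was that of Ss18l1, 0.0562, and the next that of Chd3, 0.603. With 1 library per group those values rest on an assumed spread that the sources used here do not state.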

How the data were processed

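The data are 2 RNA-seq libraries, 1 labelled RNF138 knockout and 1 labelled wild type, grouped by their labels. The authors deposited raw read counts per gene, on the mouse build GRCm38 (mm10); the submitters' processing notes list featureCounts 1.5.0-p3, HISAT2 2.0.5 and CASAVA 1.8, while the role of each tool, the strand setting and the annotation release are not stated in the sources used here. The authors also deposited FPKM values, a scaled signal per library, log2 fold changes and p-values, whose methods are likewise not given there. Gene lengths are those of the deposited table. Levels compared between genes used FPKM or counts per gene length.

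Counts were scaled by TMM factors (0.995 for the library labelled knockout and 1.01 for the library labelled wild type, edgeR 4.0.16), with no test. Log2 ratios had 0.5 counts added; ratios had none. CPM intervals are exact Poisson and ratio intervals exact Clopper-Pearson, conditional on the summed counts, at 95%. The interval of a paralogue share is binomial on raw counts, carried over to the scale per gene length, and a ratio of ratios is the sample odds ratio of the 4 counts with the exact conditional interval. The size rule required a mean count of 10 or more, a ratio of at least 2-fold (or 1.5-fold) and an interval excluding 1. Its procedure was tested on simulated data with counting error only, which leaves out the spread between cultures. Exon overlap came from GENCODE M21, on which all 48 genes had the start and end of the deposited table, and 6 overlap other genes by over 10% of exon bases. For Ss18 the exon bases differ, 9419 in GENCODE M21 against a length of 4523 in the deposited table. Promoters came from RefSeq (GRCm38.p6).

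Named in full were Smarcc1, the members past 1.5-fold and the motor genes; every other member has at least its counts or ratio. The members and lists were chosen with earlier results of these data known. Alternatives were scaling by total counts, by DESeq2 1.42.0 size factors or by upper-quartile factors, the use of log2 of FPKM plus 1, other count minimums, 5 counts added, other interval conditions, means and raw shares.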

Additional observations from a re-analysis of the deposited data

How the results depend on the processing

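The count of remodeller genes past 2-fold, 1 (Ss18l1), was 0 on log2 of the deposited FPKM plus 1 and 0 with a minimum mean count of 100, since Ss18l1 is a low gene with a mean of 31.5 counts. The count past 1.5-fold, 3, was 1 (Chd3) on log2 of FPKM plus 1, where Ss18l1 had a log2 ratio of 0.50 and Arid1b stood at -0.54, and it was 2 with intervals required to lie wholly beyond 1.5-fold (Chd3 and Ss18l1). Under the 3 other scalings, 5 added counts, no minimum, no condition on the interval and removal of the length and GC trends (added after the data were seen), the counts stayed 1 and 3. The median log2 ratio of the group lay between -0.047 and 0.026 under all of these settings. Of the members' ratios under other settings, 267 moved by less than their counting interval and 15 by more, 14 of them with the trends removed, where Baz1a, Dpf3 and Rsf1 turned sign. Depth limits the 4 measured genes with a mean count under 100 (Ss18l1, Dpf1, Smarcd3 and Dpf3) and Smarca1, which was not measured. No paired analysis was possible because each group has 1 library, and no library could be left out.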
